A study of Mus musculus with 96 samples.

Results

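Fatty acid synthesis in the mouse was followed through 9 genes whose products make, elongate or desaturate fatty acids, or set the rate of that pathway: Scd1, Fasn, Acaca, Acly, Elovl6, Srebf1, Me1, Thrsp and Pnpla3. They were chosen by gene name, and all 9 were found among the 56941 gene rows of the table. Their identifiers in the table are ENSMUSG00000037071, ENSMUSG00000025153, ENSMUSG00000020532, ENSMUSG00000020917, ENSMUSG00000041220, ENSMUSG00000020538, ENSMUSG00000032418, ENSMUSG00000035686 and ENSMUSG00000041653, in the same order. All 9 passed the filter on low counts. RNA sequencing covered 96 libraries of 2 month-old mice. Of these, 7 were spleen, 14 were heart, and liver, kidney, small intestine, skeletal muscle and brain had 15 each. The labels name WT animals and 4 strains built to induce the reprogramming factors in vivo, 4Fj, 4FsB, 4Fk and 4FsA, and give no inducing agent, promoter or background strain. Most groups of tissue and genotype had 3 samples. WT heart had 2 and 4Fj spleen had 1, and no spleen was listed for 4FsB or 4Fk.

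The table names a library only by tissue and a running number, so no library was given a genotype and no strain was compared with WT. Libraries of a tissue are therefore a mixture of genotypes, and their ranges are descriptions. They are called here by tissue and running number, which was not used to infer a genotype. Levels are CPM, the estimated count per 1000000 counts of the library. Library totals ran from 6624474 to 17882603 estimated counts, and 3 counts, taken as the floor for a gene at 0, correspond to at most 0.453 CPM. Mitochondrially encoded genes held 2.05% to 78.8% of a library, and 2 small intestine libraries, 5 and 6, were above 50%. All 29 of 29 tissue markers had their highest median in the labelled tissue. Single libraries departed from their tissue: Alb, a hepatocyte marker, was 3324 CPM in spleen library 2 and 2301 CPM in skeletal muscle library 12. Its medians there were 0.82 and 0.98 CPM. The part of liver RNA in the member values of those libraries was not tested. Since these are whole-tissue samples, fewer cells of a type and less RNA per cell cannot be told apart.

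De novo fatty acid synthesis turns citrate leaving the mitochondrion into long-chain fatty acids in the cytosol. Acly encodes ATP citrate lyase, which releases acetyl-CoA. Acaca encodes acetyl-CoA carboxylase 1, which makes malonyl-CoA, and Fasn encodes the fatty acid synthase that assembles palmitate. Elovl6 encodes the elongase that carries palmitate to stearate, and Scd1 encodes the stearoyl-CoA desaturase that makes oleate. Me1 encodes cytosolic malic enzyme, a source of NADPH. Srebf1 encodes SREBP-1, the transcription factor that insulin and LXR act through on this pathway in liver. Thrsp encodes Spot 14, a small protein induced by thyroid hormone and carbohydrate. Pnpla3 encodes a lipid droplet protein whose gene is a SREBP-1 target. In liver the pathway is known for running high in the fed state and low in fasting.

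SREBP-1 and NF-Y are known to act together through elements near the start sites of several of these genes, so some upstream stretches that hold such letters are shown. RefSeq promoter sequences on GRCm38.p6, an earlier build than the GRCm39 of the submitters' processing notes, were at hand for 8 of the 9 genes, in 11 windows of 250 bases before a start. CCAAT, the box bound by NF-Y, was searched on both strands, as was TCANNCCAC, a core of the sterol regulatory element. CCAAT lay in windows of 5 members (6 of 11 windows) and in 33.9% of all 32851 windows. The 5 were Fasn, Thrsp, Pnpla3, Me1 and Srebf1, and the stretches of Me1 and Srebf1 are not printed. TCANNCCAC lay in 1 of the 11 windows, that of Acly, and in 3.52% of all windows. The E-box CACGTG lay in 0 of the 11 and in 6.02% of all. The GC box GGGCGG lay in 5 of the 11, those of 4 members, and in 32.7% of all. A pair of the CCAAT matches of Fasn, on opposite strands, share 2 bases. In Fasn, Thrsp and Pnpla3 the capitals mark CCAAT or its reverse complement in the 120 bases before the start. In Acly they mark TCANNCCAC in the stretch from 170 to 51 bases before it.
Fasn (chr11:120824548-120824667, minus strand): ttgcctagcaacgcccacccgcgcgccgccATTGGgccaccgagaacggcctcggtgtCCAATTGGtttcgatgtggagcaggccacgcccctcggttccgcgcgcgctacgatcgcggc
Thrsp (chr7:97417551-97417670, minus strand): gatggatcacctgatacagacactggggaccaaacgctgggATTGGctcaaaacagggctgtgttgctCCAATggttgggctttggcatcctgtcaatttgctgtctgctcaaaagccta
Pnpla3 (chr15:84167696-84167815, plus strand): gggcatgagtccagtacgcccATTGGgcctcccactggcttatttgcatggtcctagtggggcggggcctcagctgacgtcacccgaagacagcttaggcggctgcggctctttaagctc
Acly (chr11:100528051-100528170, minus strand): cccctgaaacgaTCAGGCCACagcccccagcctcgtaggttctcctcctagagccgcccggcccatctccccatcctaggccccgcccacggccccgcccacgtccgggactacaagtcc
The matches of Fasn began 90, 62 and 59 bases before the start and those of Thrsp 79 and 52 bases before it. The match of Pnpla3 began 99 bases before the start, and the match of Acly 158 bases before it. The windows of Elovl6 and Acaca held none of the 4 motifs. These letters are a description of the reference and not of a factor bound in these mice.

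In liver, Scd1 had the widest ratio of highest to lowest library among the 8 genes with counts in every liver library. Its median was 2721 CPM, its lowest value 51.6 CPM in library 8 and its highest 44471 CPM in library 3, a ratio of 861. The second-highest value was 15414 CPM in library 2, which is 299 times the lowest. Fasn had a median of 497 CPM and ran from 53.1 CPM in library 8 to 4849 CPM in library 3, a ratio of 91.3, or 33.3 without library 3 and 58.7 without library 8. Scd1 and Fasn thus had their extremes in the same libraries.

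The enzymes that feed Fasn ranged less widely. Acly, at a median of 108 CPM, ran from 37.1 CPM in library 7 to 2119 CPM in library 3, and the second-highest value was 648 CPM in library 1. Acaca, at a median of 74.0 CPM, ran from 17.5 CPM in library 8 to 502 CPM in library 3, with 228 CPM next in library 15. Me1 had a median of 127 CPM, a lowest value of 32.1 CPM in library 7 and a highest of 996 CPM in library 3, with 447 CPM next in library 15. Library 3 stood at the top for each of these enzymes, and libraries 7 and 8 at the bottom.

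Elovl6, which works after Fasn, had a median of 99.2 CPM and ran from 21.5 CPM in library 12 to 749 CPM in library 3. Its second-highest value was 231 CPM in library 15. Thrsp had a median of 146 CPM, a lowest value of 23.4 CPM in library 8 and a highest of 1079 CPM in library 3. Library 9 followed closely for Thrsp, with 958 CPM, while its Scd1 value, 1800 CPM, lay below the Scd1 median. The next-lowest Thrsp value was 49.8 CPM in library 10, so the ratio of highest to lowest, 46.2, was 21.7 without library 8.

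Srebf1 was the exception at the top. Its highest value was 424 CPM in library 2, followed by 396 CPM in library 3, and its lowest was 23.8 CPM in library 8, a ratio of 17.8 that was 9.50 without library 8. Its median was 108 CPM. Pnpla3 was low, with a median of 1.29 CPM and 3 of 15 liver libraries at 0. Its highest value, 18.7 CPM in library 3, was at least 61.8-fold higher than the floor of 3 counts in the lowest library, and the second-highest, 12.97 CPM in library 1, at least 42.8-fold higher. Of the 9 genes, 8 were highest in library 3.

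**Figure D1:**
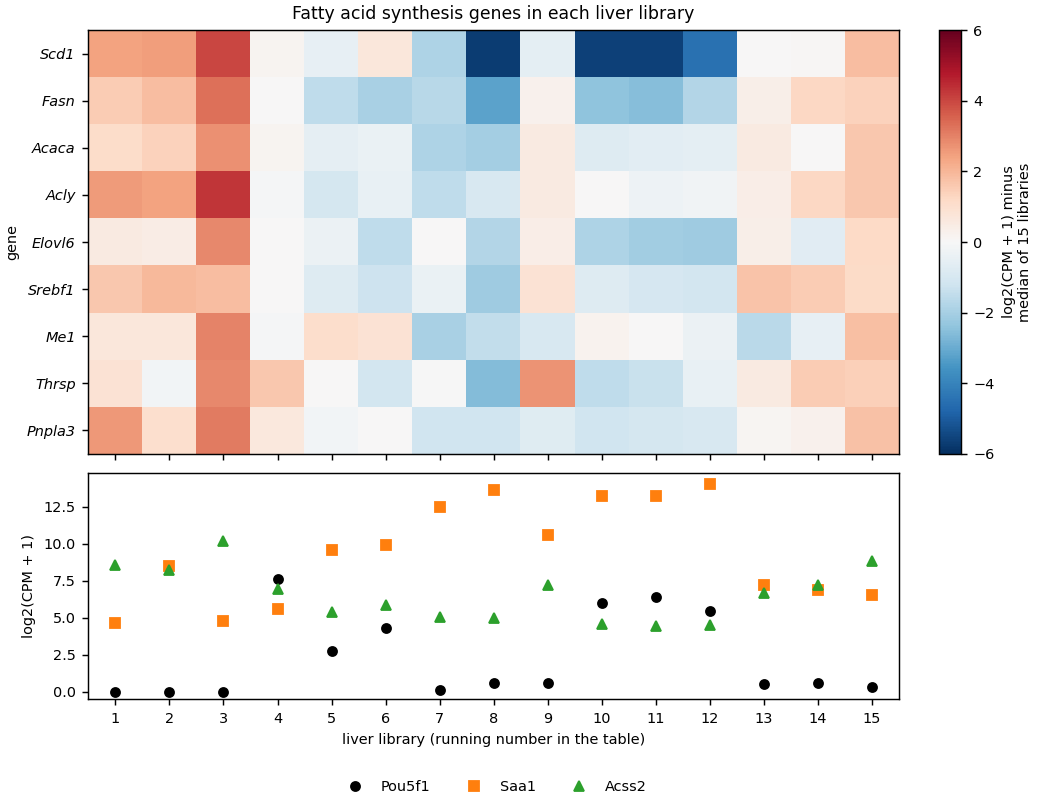
Top: log2(CPM + 1) of each gene minus its median over the 15 liver libraries, as colour, with 1 column per library. Bottom: log2(CPM + 1) of Pou5f1, Saa1 and Acss2 in the same libraries. Library 3 is the darkest red for 8 of the 9 genes, and Scd1 in libraries 8, 10, 11 and 12 is the darkest blue.

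The list level, the mean log2(CPM + 1) of the 9 genes in a library, summarises the pathway per liver library. It had a median of 7.17 and ran from 4.58 in library 8 to 10.03 in library 3. The levels next to these ends were 5.28 in library 11 and 8.45 in library 1. In library 8 all 9 genes were among their 5 lowest values, and in library 3 all 9 were among their 3 highest. Libraries 1, 3 and 15 had all 9 genes above their medians, and libraries 8, 11 and 12 had 0 above.

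Over the 15 liver libraries, the 36 pairs of these genes had a median Spearman rho of 0.75, from 0.16 to 0.95, and 36 of 36 were above 0. These correlations share each library's depth and total, and the libraries are of mixed genotype, so no p-value is given. Against the mean of the other 8, rho was 0.96 for Fasn (Pearson r 0.96, and rho 0.95 without the 2 libraries farthest from the median). It was 0.88 for Scd1 (r 0.88, and 0.81 without those 2). Me1 followed the others least, with rho 0.45 (r 0.58) and 0.22 without the 2. Me1 was 268 CPM in library 5 and 235 CPM in library 6, above its median, while Fasn there was 171 and 129 CPM, below its median. In libraries 13 and 14 the reverse held, with Me1 at 40.05 and 89.7 CPM and Fasn at 632 and 1175 CPM.

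Pou5f1, which encodes the reprogramming factor Oct4, was set beside these genes in each liver library. It was at 0 in libraries 1, 2 and 3, where Scd1 was 14437, 15414 and 44471 CPM. In libraries 10, 11 and 12, Pou5f1 was 63.4, 83.4 and 43.6 CPM and Scd1 was 55.5, 55.9 and 121 CPM. Low Scd1 was also measured with Pou5f1 near 0, since library 8, the lowest, had Scd1 at 51.6 CPM and Pou5f1 at 0.48 CPM. The highest Pou5f1 did not come with the lowest Scd1. Library 4 had Pou5f1 at 199 CPM and Scd1 at 3037 CPM, above the Scd1 median.

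The other liver libraries lay between these. Libraries 5 and 6 had Pou5f1 at 5.71 and 18.7 CPM and Scd1 at 1915 and 4409 CPM. Libraries 7, 9, 13, 14 and 15 had Pou5f1 at 0.10, 0.49, 0.42, 0.49 and 0.22 CPM. Scd1 in those was 761, 1800, 2721, 2817 and 9667 CPM. Because many Pou5f1 values lie at or near 0 and the rest apart from them, no correlation over the 15 libraries is given.

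Fasn gave a similar picture with a smaller span. It was 1428, 1768 and 4849 CPM in libraries 1, 2 and 3, and 91.6, 82.7 and 145 CPM in libraries 10, 11 and 12. Library 8 was lower than those at 53.1 CPM, and library 4 was at 497 CPM, its median over liver. Libraries 5 and 6, at 171 and 129 CPM, and library 7, at 156 CPM, were close to library 12 for Fasn although far above it for Scd1. Acly was 648, 584 and 2119 CPM in libraries 1, 2 and 3. It was lower in libraries 10, 11 and 12, at 108, 87.3 and 92.1 CPM, but near its liver median, unlike Scd1. Me1 was 146, 127 and 99.3 CPM there, also near its median, against 206, 207 and 996 CPM in libraries 1, 2 and 3.

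The other 3 factors were present with Pou5f1. In library 4, Sox2 was 201 CPM, Klf4 341 CPM and Myc 424 CPM, and in library 11 they were 320, 175 and 866 CPM. Saa1, which encodes the acute phase protein serum amyloid A1, was high where Scd1 was low, in libraries with and without Pou5f1. It was 12796 CPM in library 8 and 9499, 9444 and 17317 CPM in libraries 10, 11 and 12. In libraries 1, 2, 3 and 4 it was 24.1, 358, 26.8 and 47.7 CPM. Library 7 had Saa1 at 5657 CPM with Scd1 at 761 CPM. The part of the acute phase response, and of the induced factors, in the Scd1 values was not tested.

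**Figure D2:**
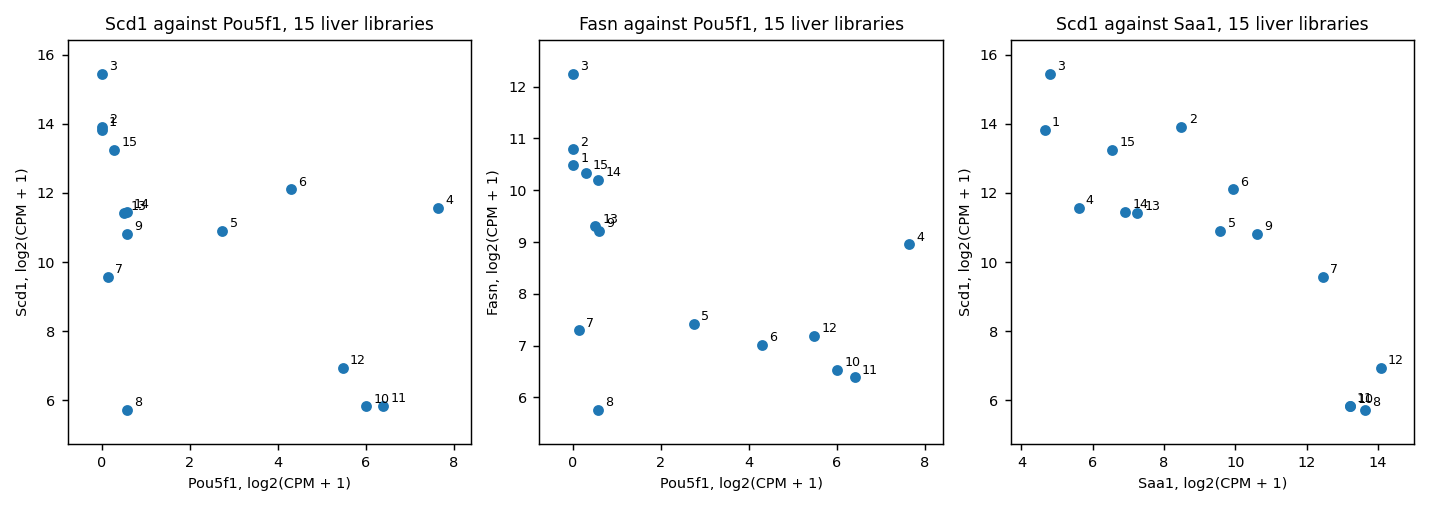
Each point is 1 of 15 liver libraries, marked by its running number, with both axes in log2(CPM + 1). Left and middle: Scd1 and Fasn against Pou5f1. Right: Scd1 against Saa1. Library 8 lies low on Scd1 without Pou5f1, library 4 has the highest Pou5f1 with Scd1 at 3037 CPM, and libraries 8, 10, 11 and 12 lie together at high Saa1 and low Scd1.

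Other genes were compared with the list level over the 15 liver libraries by Spearman rho, for 9071 genes with a median of 5 CPM or more. Their median rho was 0.07, with 20.7% above 0.5 and 9.13% below -0.5. The 10 genes most like the list were Acss2, Stradb, Papss2, Gstm1, Acacb, Aldh4a1, C2cd2, Rassf8, Mob3b and Mcc, at 0.94 to 0.96. Acss2 encodes acetyl-CoA synthetase 2, which makes acetyl-CoA from acetate, and had rho 0.96 (Pearson r 0.97, rho 0.98 without libraries 3 and 8, the 2 farthest from the median level). It ran from 20.7 CPM in library 11 to 1157 CPM in library 3. Acacb, which encodes the acetyl-CoA carboxylase at the mitochondrial surface, had rho 0.95 (r 0.96, 0.94 without the 2) and ran from 7.12 to 616 CPM. The 5 least like the list were Saa1, H2aj, Srp19, Snhg6 and Klhl2, at -0.89 to -0.86. Without libraries 3 and 8, Saa1 was at -0.85.

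Lists of neighbouring pathways were read against that background. Of 14 genes for substrate and NADPH supply, 10 were above 0.5, with a median of 0.74. Among them Pklr, the liver pyruvate kinase, had rho 0.87, and Slc2a2, the glucose transporter GLUT2, 0.92. G6pdx and Pgd, the NADPH-producing enzymes of the pentose phosphate pathway, were at -0.10 and -0.11. Of 10 genes for polyunsaturated fatty acid synthesis, 6 were above 0.5, with a median of 0.74. Fads2, the delta-6 desaturase, was at 0.88 and Elovl5 and Elovl2, elongases of polyunsaturated fatty acids, at 0.88 and 0.88.

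Genes of lipid handling downstream were more mixed. Of 15 genes at 5 CPM or more for triglyceride synthesis and lipid droplets, 7 were above 0.5, with a median of 0.37. Gpam, the first acyltransferase of glycerolipid synthesis, was at 0.91 and Plin4, a droplet coat protein, at 0.08. Of 20 genes for cholesterol synthesis and uptake, 11 were above 0.5, with a median of 0.58. Sc5d, a late enzyme of cholesterol synthesis, was at 0.89. Of 9 LXR targets, 6 were above 0.5, with a median of 0.72. The phospholipid transfer protein gene Pltp was at 0.93 and Cyp7a1, the rate-limiting enzyme of bile acid synthesis, at 0.82.

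Regulators were mixed. Of 18 regulators at 5 CPM or more, 7 were above 0.5, with a median of 0.21. Insig1, itself a sterol-responsive gene, was at 0.83, and Mlxipl, which encodes the glucose-responsive factor ChREBP, at 0.65. Irs2, an insulin receptor substrate, was at 0.30 (0.13 without libraries 3 and 8), and Nr0b2, the nuclear receptor SHP, at 0.01. Srebf2, the paralog that drives cholesterol synthesis, was at 0.27. Of 19 genes for fatty acid oxidation and fasting, 6 were above 0.5 and 3 below -0.5, with a median of 0.14. G6pc, the glucose-6-phosphatase, was at 0.83 and Cyp4a10, a PPAR alpha target, at -0.56. Of 10 clock output genes, 4 were above 0.5, with a median of 0.42, and Dbp was at 0.35. Of 15 acute phase genes, 0 were above 0.5 and 9 below -0.5, with a median of -0.58, and Saa2, Lcn2 and Orm2 were at -0.85, -0.79 and -0.45.

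Markers of cells were read the same way. Hepatocyte markers had a median rho of 0.24, with 2 of 5 above 0.5. Cps1, the first enzyme of the urea cycle, was at 0.66 (0.84 without libraries 3 and 8) and ran from 273 to 5166 CPM, lowest in library 10 and highest in library 3. Ttr, which encodes transthyretin, was at 0.59, Cyp2e1, a cytochrome P450, at 0.24, and Apoa1, the main protein of HDL, at -0.13. Of 3 leukocyte markers, 1 was above 0.5. That was Ptprc, the pan-leukocyte gene CD45, at 0.66, and all 3 were highest in library 2. Their part in the liver pattern was not tested. The 10 cell division genes were all below 5 CPM at the median. The 7 adipocyte markers were Adipoq, Plin1, Cfd, Lep, Retn, Cidec and Fabp4. Their summed level in liver ran from 4.04 to 40.9 CPM, with Fabp4 at 3.74 and 29.1 CPM in those libraries. Adipoq, which encodes adiponectin, was at 0 in 11 of 15 libraries and at most 1.10 CPM.

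Across tissues, 5 of the 9 genes had their highest median in liver, and all 9 had their highest single value there. The order of median CPM for Scd1 was liver 2721, spleen 359, brain 171, kidney 130, skeletal muscle 116, small intestine 35.6 and heart 12.2. Fasn followed liver 497, brain 244, spleen 130, kidney 78.7, small intestine 72.9, heart 44.3 and skeletal muscle 29.8. Acaca followed liver 74.0, brain 65.7, spleen 30.3, small intestine 23.3, kidney 22.0, heart 12.4 and skeletal muscle 11.5. Brain was next to liver for both Fasn and Acaca, the pair that makes palmitate.

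Thrsp had medians of 146 CPM in liver, 17.2 in heart, 16.4 in skeletal muscle, 14.3 in brain, 9.44 in spleen, 7.12 in kidney and 0.87 in small intestine. The lowest liver value, 23.4 CPM, was above the highest values in heart, 21.4 CPM, spleen, 19.6 CPM, and small intestine, 18.4 CPM. It was below the highest values in kidney, 136 CPM, skeletal muscle, 55.2 CPM, and brain, 47.0 CPM. Elovl6 followed liver 99.2, small intestine 90.2, brain 37.9, kidney 14.6, spleen 11.6, skeletal muscle 0.89 and heart 0.66. Its 14 heart libraries lay between 0.22 and 1.79 CPM, near the floor.

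For 4 genes the highest median was elsewhere. Acly followed spleen 178, brain 164, kidney 109, liver 108, small intestine 42.4, heart 31.9 and skeletal muscle 11.97. Srebf1 followed spleen 121, liver 108, brain 78.7, small intestine 68.1, heart 51.2, kidney 48.1 and skeletal muscle 41.2. Me1 followed kidney 310, skeletal muscle 240, small intestine 141, liver 127, heart 120, brain 48.0 and spleen 16.1. Pnpla3 followed brain 2.68, liver 1.29, skeletal muscle 0.54, small intestine 0.52, kidney 0.32, heart 0.29 and spleen 0, where 4 of 7 libraries had no count.

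Of the 54 pairs of neighbours in these orders, 52 had overlapping ranges and 45 had overlapping quartile ranges. The exceptions by range were Thrsp in liver against heart, and Me1 in brain, from 39.3 to 108 CPM, against spleen, from 2.65 to 25.3 CPM. As a ratio of highest to lowest library, Scd1 varied least in brain, at 1.92 (120 to 230 CPM), and next least in spleen, at 4.69, and heart, at 6.81.

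**Figure D3:**
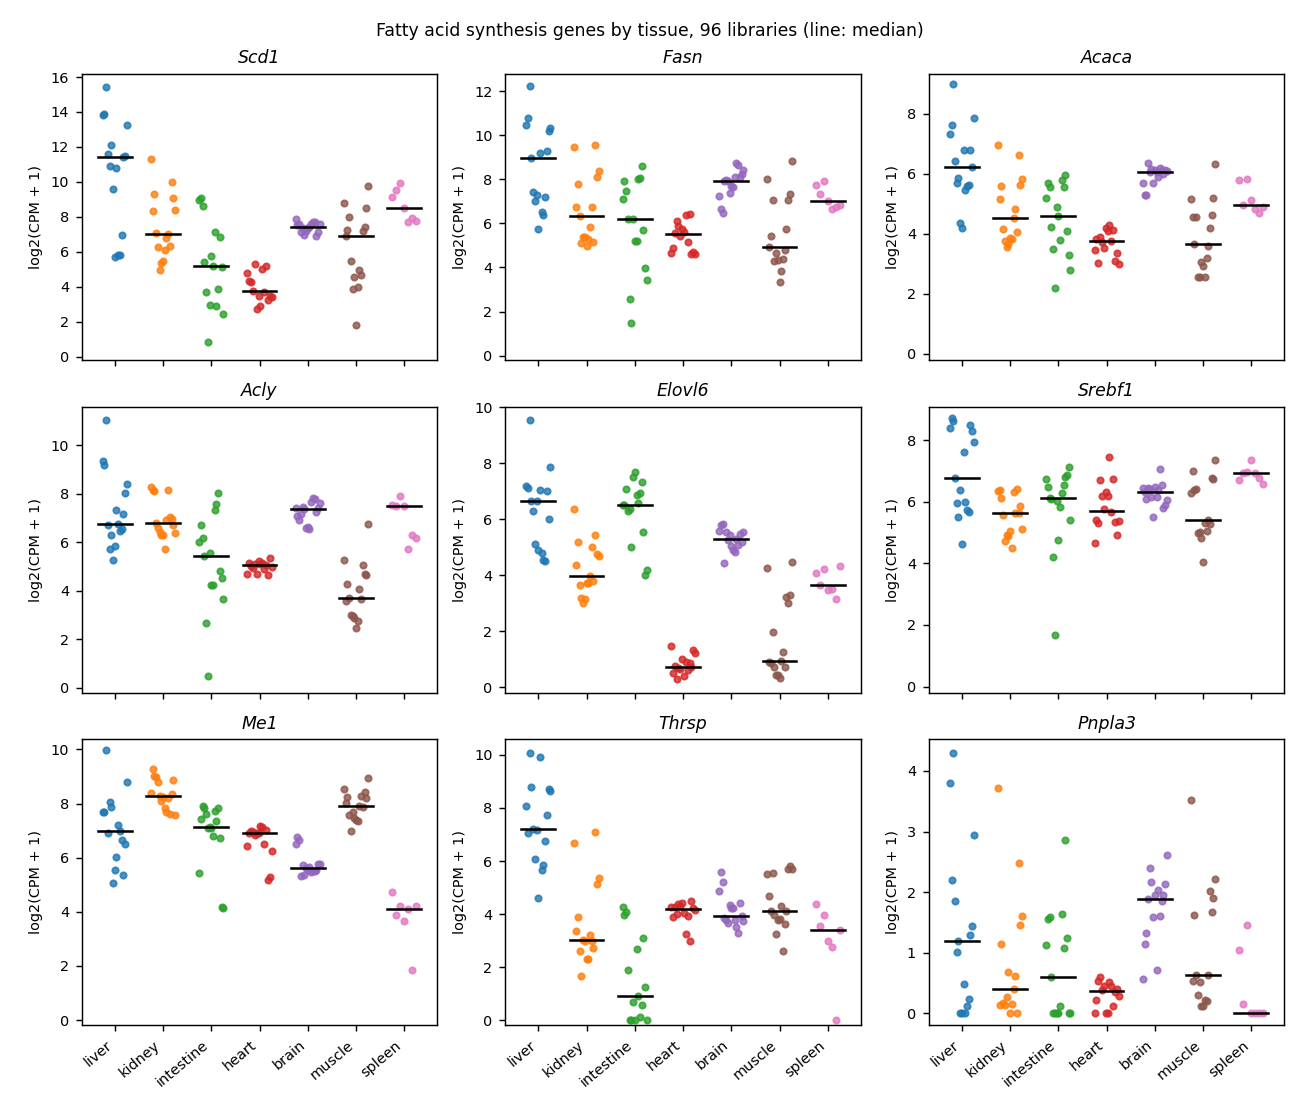
Each panel is 1 gene, each point 1 of 96 libraries, in log2(CPM + 1) on a vertical axis of its own for each gene, with the tissues along the horizontal axis. Black lines are medians. Liver holds the highest point of every gene and overlaps most of the other tissues. Thrsp in heart, spleen and small intestine lies wholly below liver. So do Elovl6 in heart, skeletal muscle and spleen, Scd1 in heart and Me1 in spleen.

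Liver was compared with each other tissue by edgeR's quasi-likelihood test on 20100 genes, with TMM scaling and Benjamini-Hochberg adjustment. A gene was called at an adjusted p under 0.05 and a fold of 2 or more. Nothing in the labels says which libraries come from one animal, so these p-values measure the spread between libraries of mixed genotype. Against kidney, 8 of 9 members were higher in liver and 0 lower, where 15.9% and 21.1% of all genes tested were higher and lower. Against small intestine, 7 were higher and 0 lower, against 19.5% and 25.7% of all genes. Against heart, 8 were higher and 0 lower, against 24.6% and 24.2%. Against brain, 8 were higher and 0 lower, against 29.1% and 32.7%. Against skeletal muscle, 7 were higher and 0 lower, against 27.4% and 24.4%. Against spleen, all 9 were higher and 0 lower, against 22.7% and 27.4%.

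The median log2 fold of the 9 genes was 2.43 against kidney, 2.44 against small intestine, 3.66 against heart, 2.58 against brain, 2.91 against skeletal muscle and 4.01 against spleen. Over all genes tested those medians were 0.00, -0.10, 0.04, -0.05, 0.05 and -0.19. With library totals in place of TMM factors, the medians over all genes were shifted by -0.52, -0.35, 0.00, -0.73, 0.41 and -1.003. The share of calls that were higher in liver then went from 42.9% to 24.5% against kidney, from 43.2% to 31.5% against small intestine, from 47.1% to 30.6% against brain, from 53.0% to 65.6% against skeletal muscle and from 45.3% to 20.3% against spleen. No member's log2 fold changed sign between those scalings.

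Scd1 had the largest log2 fold of the 9 against heart, 8.58 ± 0.89 (SE), and against brain it was 6.05 ± 0.77, with adjusted p = 1.05e-14 and 2.34e-11 by edgeR. Against kidney it was 4.76 ± 0.72, with adjusted p = 2.12e-08 by edgeR. Without liver library 3 these were 7.75, 5.22 and 3.93. Fasn was higher in liver by a log2 fold of 2.79 ± 0.51 against kidney and 2.59 ± 0.51 against brain, with adjusted p = 2.06e-06 and 3.62e-06 by edgeR. Without liver library 3 these were 2.15 and 1.95. Thrsp, at 6.53 ± 0.67 against small intestine and 4.27 ± 0.61 against heart, had adjusted p = 6.75e-15 and 2.24e-09 by edgeR and moved by less than 1.5-fold without that library.

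Elovl6 was higher in liver than in heart by a log2 fold of 7.40 ± 0.56 (edgeR adjusted p = 1.75e-21), or 6.78 without liver library 3. Against small intestine it was 0.58 ± 0.41 (edgeR adjusted p = 0.216), and -0.036 without that library. Me1 was not called against 4 of the 6 tissues. Its log2 fold was -0.21 ± 0.33 against kidney, 0.28 ± 0.33 against small intestine, 0.98 ± 0.34 against heart and -0.74 ± 0.33 against skeletal muscle. The edgeR adjusted p was 0.619 against kidney and 0.477 against small intestine. It was 0.00909 against heart and 0.0418 against skeletal muscle by edgeR, both under a fold of 2. Libraries 5 and 6 of small intestine were above 50% mitochondrially encoded. Without them Me1 against small intestine was at 1.10 and then passed both criteria (edgeR adjusted p = 0.00105). Against skeletal muscle Me1 was at -1.26 without liver library 3, and then passed both criteria (edgeR adjusted p = 0.000244). Against spleen, Me1 was higher in liver by 4.80 ± 0.54 (edgeR adjusted p = 1.05e-12).

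Acly and Srebf1 were higher in liver than in spleen on the fitted scale, by 2.25 ± 0.52 and 1.63 ± 0.38 (edgeR adjusted p = 0.000118 and 0.000114), although their median CPM was higher in spleen. With TMM factors the median of Acly was 114 in liver and 92.2 in spleen, and that of Srebf1 was 162 and 68.1. The same held for Acly against brain, where the fit gave 1.81 ± 0.38 (edgeR adjusted p = 1.31e-05) and TMM medians were 114 and 103. The order of the medians in these pairs thus depended on the scaling, while the direction of the fitted fold did not. Mean CPM was higher in liver without TMM factors too. For Acly it was 324 in liver, 140 in spleen and 156 in brain, and for Srebf1 183 in liver and 119 in spleen. With library totals in place of TMM factors the fitted log2 fold against spleen was 1.21 for Acly and 0.61 for Srebf1, and neither was called (edgeR adjusted p = 0.0567 and 0.186). Library totals also ended the calls of Acaca against brain (1.65 to 0.91) and of Pnpla3 against kidney (1.76 to 1.10) and small intestine (2.25 to 1.62), the latter pair with edgeR adjusted p of 0.228 and 0.0663. Acly against spleen was 1.43 without liver library 3. Pnpla3 was at 1.13 ± 0.70 against brain and 0.63 ± 0.70 against skeletal muscle, with edgeR adjusted p of 0.138 and 0.438.

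Library 3 of liver mattered for many of these sizes. Of 47 called folds out of 54, 27 moved by over 1.5 times without it and 4 were no longer called. Those 4 were Acly against kidney (1.76 to 0.94), Acly against brain (1.81 to just under 1.00), Srebf1 against skeletal muscle (1.06 to 0.92) and Pnpla3 against kidney (1.76 to 1.11, edgeR adjusted p = 0.191). Pnpla3 against kidney was 2.47 without kidney library 1.

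**Figure D4:**
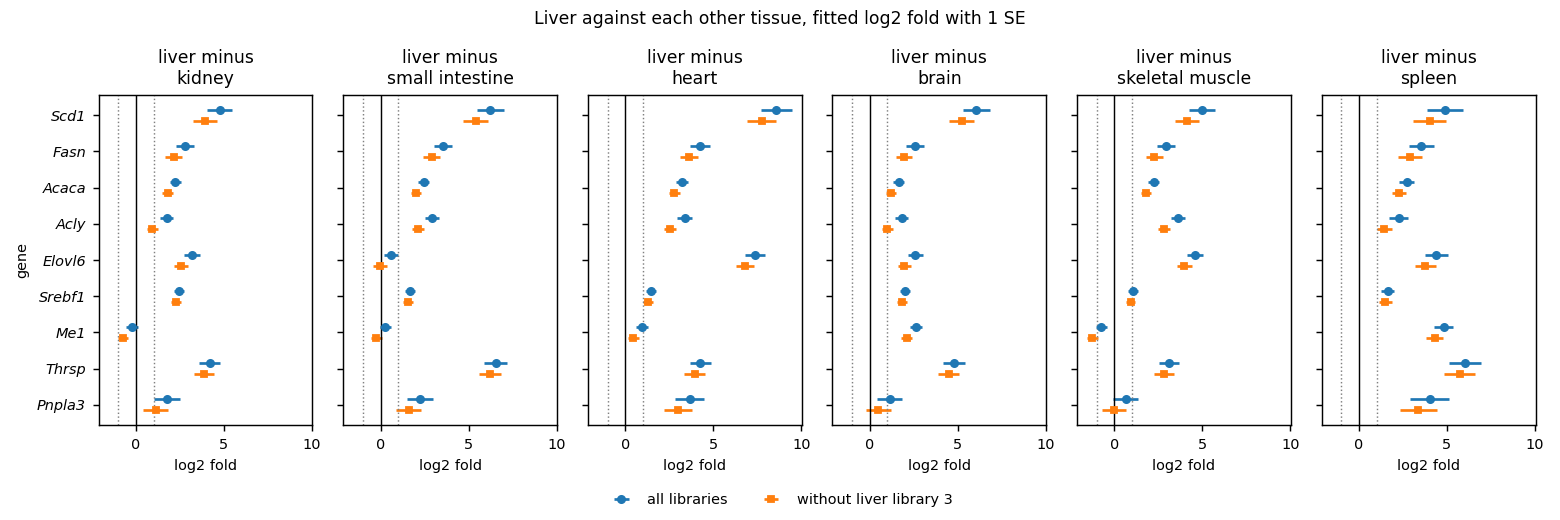
Fitted log2 fold of liver minus each other tissue for the 9 genes, with bars of 1 SE, from all libraries (blue circles) and without liver library 3 (orange squares). Dotted lines mark a fold of 2 in either direction. Scd1 lies farthest right in 4 of the 6 panels, Me1 lies at or left of 0 against kidney and skeletal muscle, and the orange squares lie left of the blue circles.

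Close relatives of the members were tested in the same fit. Scd2, the desaturase paralog best known from brain, was lower in liver than in brain by a log2 fold of -5.67 ± 0.57 (edgeR adjusted p = 1.65e-15), and its brain median was 1183 CPM against 3.65 CPM in liver. Scd3 was at 0 in 10 of 15 liver libraries. Scd1 to Scd4 are close copies, and how shared reads were assigned is not given in the sources used here. Acacb was higher in heart and skeletal muscle, with log2 folds of -1.93 ± 0.39 and -2.09 ± 0.39 for liver minus each (edgeR adjusted p = 1.15e-05 and 1.85e-06). Elovl5 was higher in liver in all 6 comparisons, by 2.95 to 4.86. Of the 15 relatives tested, 5 were higher and 4 lower in liver than in kidney, where 15.9% and 21.1% of all genes were, and 7 were higher and 6 lower than in brain, where 29.1% and 32.7% were. Against the other 4 tissues, 4 to 7 were higher and 3 to 7 lower.

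Lists of the wider pathway were counted against each of the 6 tissues, where 15.9% (kidney) to 29.1% (brain) of all genes were higher in liver and 21.1% (kidney) to 32.7% (brain) lower. Of 10 genes for polyunsaturated fatty acid synthesis, 7 were higher than in kidney, 6 than in brain and 8 to 10 than in each other tissue, and 1 was lower, against brain. Of 14 for substrate and NADPH supply, 4 were higher than in kidney and 3 than in small intestine, and 10 than in each of the other 4 tissues. From 0 to 3 of them were lower. Of 20 regulators, 8 were higher than in kidney and 11 than in brain, where Mlxipl was at 7.43 ± 0.54 (edgeR adjusted p = 6.81e-23). Against the other 4 tissues 7 to 10 regulators were higher, and 4 were lower against skeletal muscle and at most 1 elsewhere. Of 20 genes for cholesterol synthesis and uptake, 12 were higher than in small intestine, 16 than in kidney and 19 or 20 than in the rest, and 0 were lower in any comparison.

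In kidney, several members varied alongside adipocyte genes. Scd1 had a median of 130 CPM and ran from 29.6 CPM in library 6 to 2532 CPM in library 1, with 1000 CPM in library 13. Fasn ran from 30.7 to 744 CPM, with its highest values in libraries 13 and 1. The 7 adipocyte markers summed to 24.7 to 1212 CPM over the 15 kidney libraries. Their highest sums were 1212 CPM in library 1 and 876 CPM in library 13, the same libraries, and Adipoq was 128 and 55.9 CPM there. The rho of Scd1 with that sum was 0.62 (Pearson r 0.62, rho 0.70 without the 2 farthest libraries), over 15 libraries. For Me1, whose kidney median was the highest of any tissue, it was -0.20 (r -0.16, and -0.23 without the 2). Me1 ran only from 191 to 618 CPM in kidney. The part of fat tissue in the kidney values was not tested.

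Small intestine split the pathway. Scd1 ran from 0.77 CPM in library 6, with 4.47 CPM next in library 15, to 544 CPM in library 2, with 503 CPM in library 1, and had a rho of 0.91 with the adipocyte sum (r 0.93, and 0.90 without the 2 farthest). That sum ran from 17.1 to 552 CPM and was highest in library 1. In library 15 it was 75.5 CPM, of which Cidec made 72.4 CPM, with Adipoq at 0. Cidec also made 129 of 143 CPM in library 14 and 124 of 165 CPM in library 4, with Adipoq at 1.13 and 4.40 CPM. In library 1 Cidec made 103 of the 552 CPM, so the sum did not hold the same markers in every library. Thrsp, at 0 in 4 of 15 libraries, had rho 0.83 (r 0.82, and 0.85 without the 2). Fasn had rho 0.33 (r 0.45, and 0.19 without the 2), and Elovl6 -0.01 (r 0.06, and -0.02). The highest Fasn values were 389, 268 and 260 CPM in libraries 12, 11 and 10, where Acly was 258, 189 and 158 CPM and Scd1 was only 13.5, 6.39 and 139 CPM. Adipoq was 1.50, 0 and 5.59 CPM in those libraries, against 62.7 CPM in library 1. Library 6, the lowest for Scd1, Fasn, Acaca, Acly and Srebf1, was 1 of the 2 with over 50% mitochondrially encoded counts.

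Skeletal muscle varied as a block. The median rho over the 36 pairs was 0.80, from 0.43 to 0.93. Library 15 was highest for Scd1 at 852 CPM, Fasn at 460 CPM, Acaca at 78.5 CPM and Acly at 105 CPM, and also for Elovl6, Srebf1 and Me1. Library 8 was lowest for Scd1 at 2.50 CPM and Fasn at 9.27 CPM. The adipocyte sum ran from 101 to 1011 CPM, highest in library 12, and Scd1 had rho 0.39 with it (r 0.60, and 0.07 without the 2 farthest libraries), so that relation rested on those libraries. Adipoq was above 0 in every muscle library. The lowest sum, in library 8, held 98.3 CPM of Fabp4, with Adipoq at 0.71 CPM.

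In the other tissues the genes varied less or less together. The median rho over the 36 pairs was 0.62 in kidney, 0.51 in small intestine, 0.61 in the 7 spleen libraries, 0.17 in heart and -0.08 in brain. In brain, Thrsp ran against the mean of the other 8, with rho -0.78 (r -0.61, and -0.70 without the 2 farthest libraries), but not against each of them. Brain libraries 2 and 3 had the highest Thrsp, 47.0 and 36.0 CPM, Me1, 108 and 98.6 CPM, and Elovl6, 54.1 and 55.5 CPM. They had the lowest Fasn, 100 and 86.9 CPM, and Acaca, 37.9 and 37.7 CPM. The adipocyte sum in brain was at most 1.19 CPM. In heart the sum ran from 214 to 1081 CPM while Adipoq was at most 1.28 CPM. Fabp4 made 1078 CPM of that highest sum, in library 13.

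**Figure D5:**
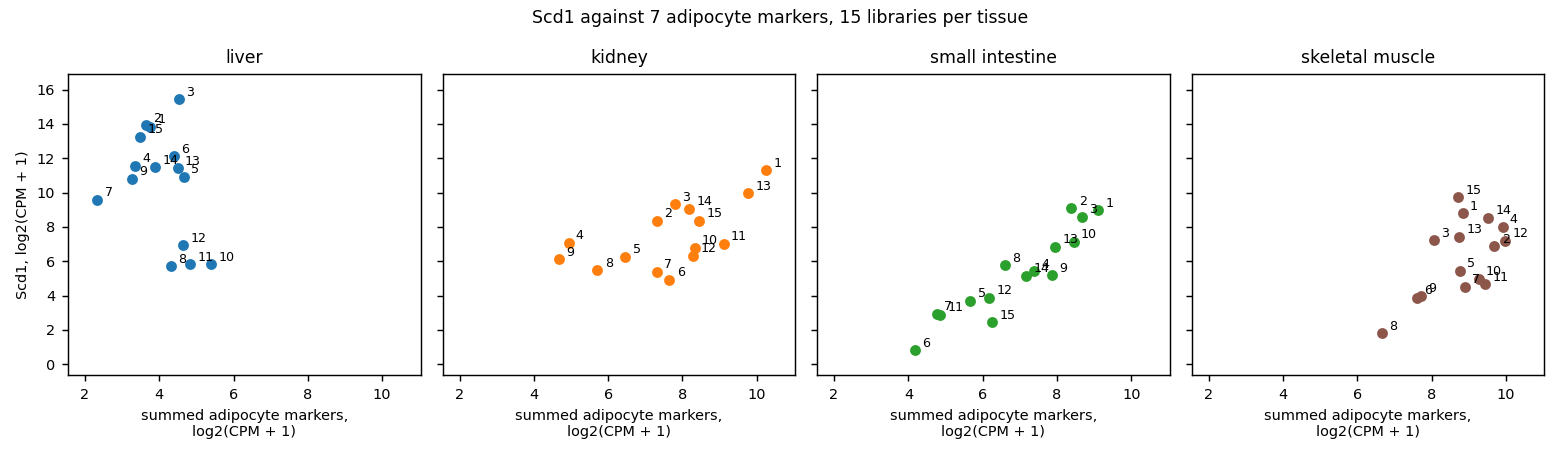
Scd1 against the summed CPM of 7 adipocyte markers, both in log2(CPM + 1), with 1 point per library and 15 libraries in each of 4 tissues, marked by running number. In kidney and small intestine the points run from lower left to upper right. Kidney libraries 1 and 13 and intestine libraries 1, 2 and 3 lie at the upper right. Liver lies at low sums, with Scd1 from 51.6 to 44471 CPM.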

How the data were processed

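Per the labels' protocols, cDNA libraries made from total RNA of frozen tissue were sequenced at a commercial provider. Build GRCm39 and DESeq2, its version unnamed, come from the submitters' processing notes. Neither aligner, counter, annotation nor strandedness is given in the sources used here. The authors deposited estimated counts per gene for 96 libraries. Of the values above 0, 26.8% were not whole within 1e-06, and they were rounded for the count tests. The authors also deposited normalised values, treated as a signal and used only as an alternative. Rows without a gene name, 310 of them, held at most 0.113% of a library and stayed in the totals.

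Columns give a tissue code and a running number, which were mapped to tissues and not to genotypes. No duplicate library was found: 0 of 637 within-tissue pairs held the same values, and chi-square per gene (20 or more counts) was at least 6.24. CPM used library totals, list levels a pseudocount of 1 CPM, and floors 3 counts. Without molecular identifiers, reads are not independent molecules, so floors cover counting error alone. Totals set the precision: the floor was 0.168 to 0.453 CPM.

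Liver was compared with each other tissue by edgeR 4.0.16 (R 4.3.3; filterByExpr, TMM, 1 term per tissue, all 96 libraries). The test was tested on simulated counts before use. DESeq2 1.42.0 and limma 3.58.1 served as alternatives, as did other scalings, filters, pseudocounts and left-out libraries. Levels, correlations and figures came from Python 3.11.15 with pandas 2.3.3, numpy 2.4.6, scipy 1.17.1 and matplotlib 3.10.9. The 22 lists held 213 genes, of which 212 were found by name.

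The members, lists and tests were chosen with earlier results of these data known. Named genes are the 9 members, the 4 factors, close relatives, up to 4 genes per list with the widest spread in liver at a median of 5 CPM or more, and the 10 genes most and 5 genes least like the list level. G6pdx and Pgd are named outside that rule, after their values were seen.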

Additional observations from a re-analysis of the deposited data

How the results depend on the processing

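The labels give no replicate number that the columns carry. Libraries of different tissues share a running number in the column names only, and whether it marks an animal is not given in the sources used here. Over 20100 genes, deviations from the tissue mean had a median r of 0.11 in 261 pairs with the same running number, with 139 above 0.1, and -0.016 in 3662 pairs with other numbers. Of 96 libraries, 35 correlated best with their own number. A fit with that number as a replicate block left 11 of 12 counts of members within 1.5 times and moved the count lower in liver than in skeletal muscle from 0 to 1, Me1 (-1.11). Pnpla3 against brain, not called in either fit, went from 1.13 to -0.27 under the block.

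The counts of members called stayed within 1.5 times the reported count in 104 of 108 recalculations over 12 counts, the block included. The exception in each case was the count of members lower in liver than in skeletal muscle. It also went from 0 to 1, Me1, without liver library 3, with limma-voom and with no minimum fold. The counts higher in liver were 7 to 9 of 9 members, so they could not rise past 1.5 times. Falls within that limit included 8 to 6 against kidney, without liver library 3 and with limma-voom. Against spleen the count fell from 9 to 7 with library totals. Against small intestine it rose from 7 to 8, by Me1, without the 2 libraries over 50% mitochondrially encoded. Among 432 recalculated member folds, judged by sign and adjusted p under 0.05 without a minimum fold, 409 kept both. Of the rest, 13 lost that p, 4 gained it and 6 changed sign. A call lost or gained through the fold of 2 alone counts among the 409. Without liver library 3, Acly against kidney lost its call in this way (0.94) and Me1 against skeletal muscle gained one (-1.26). The 6 that changed sign were not called in the reported fit. Without liver library 3, Elovl6 against small intestine was -0.036, Me1 against small intestine -0.24 and Pnpla3 against skeletal muscle -0.018. With limma-voom, Pnpla3 was -0.65 against brain and -0.40 against skeletal muscle. The cause was not tested. The left-out libraries 3 of liver and 1 of kidney, the deposited signal, limma-voom and the block were chosen after seeing the data.

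In the deposited signal the ratio of highest to lowest liver library was 47.6 for Fasn, against 91.3 in CPM, and within 1.5 times the CPM ratio for the other 7 genes with counts in every liver library. The liver list level had a median of 7.13 with a pseudocount of 0.5 CPM and 7.13 with TMM factors within liver. All 15 libraries kept their rank with the former, but 6 with the latter, where the level ran from 5.01 to 10.02. With TMM factors within liver the ratio of highest to lowest library for Srebf1 was 11.7, against 17.8 in CPM. Genes above rho 0.5 numbered 1456 to 1971 over the alternatives, against 1881, and 4 to 7 of the 10 genes most like the list stayed in that rank. Depth limits Pnpla3 in every tissue, Thrsp in small intestine and spleen, Elovl6 in heart and skeletal muscle, and Acly in small intestine. The lowest libraries of these held 0 to 7 counts.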
